A study of Mus musculus with 2 samples.

Results

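T cell receptor genes were examined for open chromatin in spleen by DNase-seq, which sequences the sites in chromatin that a nuclease can reach. The members were the 270 annotated T cell receptor gene segments, of 55450 annotated genes, in 3 spans of the mouse genome (build mm10), each running from the first to the last segment with 20 kb added on both sides. The alpha/delta locus, with Trac and Trdc, held 202 segments on chromosome 14 from 52427928 to 54224206, the beta locus, with Trbc1 and Trbc2, held 53 on chromosome 6 from 40891229 to 41558452, and the gamma locus held 15 on chromosome 13 from 19178024 to 19352756. Of the peaks of open chromatin, 33 of 42454 in replicate 1 and 54 of 60683 in replicate 2 fell in these spans.

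The series had 1 group of 2 libraries, called biological replicates 1 and 2. The tissue was spleen, the mice were B6CASTF1/J females at an age of 36 days, and the labels name no treatment. B6CASTF1/J is a first-generation hybrid of C57BL/6J and CAST mice, so each cell carried 1 receptor allele of either parent, and peaks were called without separating them. The sample descriptions number the females differently but the labels give both libraries 1 donor entry, so the spread between them may be technical. With 1 group there was no comparison between conditions and no p-value. Spleen is a mixed tissue, and in such bulk samples few open cells of a type and weak opening in many cells cannot be told apart.

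A T cell receptor gene is assembled in the thymus from variable (V), diversity (D, beta and delta only) and joining (J) segments, which the RAG recombinase cuts at a recombination signal, a heptamer and a nonamer separated by a spacer, and the finished exon is spliced to a constant (C) gene. Enhancers open the loci in T cells: the alpha enhancer lies downstream of Trac, in a regulatory region that reaches towards the neighbouring gene Dad1, and the beta enhancer lies between Trbc2 and the last V segment, Trbv31. In spleen the segments have already been joined in T cells, while B cells, the most numerous cells of the organ, assemble immunoglobulin genes instead.

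In both libraries open chromatin in the receptor loci lay mainly outside the coding segments. The strongest receptor peaks stood between Trac and Dad1 and, in the beta locus, between Trbc2 and Trbv31. A peak of either library was found at 20 of 144 V segments and at none of 70 J segments. Of the constant genes, Trac had a peak in replicate 2 alone, and Trdc, Trbc1 and Trbc2 had none in either library.

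The sequences that carry these results are shown 5′ to 3′ on the plus strand of mm10, with capitals for bases inside footprints of both libraries. A footprint is a short stretch inside open chromatin that is protected from cutting, and those used here were listed at a false discovery rate (FDR) of 0.01. The first set holds the strongest peaks around the constant genes, and the palindrome TGACGTCA, the cyclic AMP response element that CREB and ATF factors bind, stands in capitals in the first of them.
Downstream of Trac, centre of the peak from 54227401 to 54227760, chr14:54227431-54227730: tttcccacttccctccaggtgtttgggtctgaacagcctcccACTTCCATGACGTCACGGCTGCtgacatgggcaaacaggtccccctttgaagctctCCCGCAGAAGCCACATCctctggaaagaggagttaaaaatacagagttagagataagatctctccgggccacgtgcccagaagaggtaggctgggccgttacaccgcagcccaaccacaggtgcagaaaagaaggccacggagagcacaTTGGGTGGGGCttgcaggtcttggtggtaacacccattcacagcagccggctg
Strongest receptor peak, between Trac and Dad1, chr14:54233341-54233560: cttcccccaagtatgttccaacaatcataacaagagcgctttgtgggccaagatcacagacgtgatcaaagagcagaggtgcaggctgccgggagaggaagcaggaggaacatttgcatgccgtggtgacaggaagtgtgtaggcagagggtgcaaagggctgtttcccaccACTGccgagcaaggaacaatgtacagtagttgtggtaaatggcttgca
Between Trbc2 and Trbv31, chr6:41554381-41554600: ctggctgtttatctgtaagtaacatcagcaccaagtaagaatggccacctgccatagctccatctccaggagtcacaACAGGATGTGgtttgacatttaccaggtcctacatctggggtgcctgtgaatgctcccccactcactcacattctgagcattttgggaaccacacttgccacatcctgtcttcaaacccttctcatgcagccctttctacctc

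The second set holds peaks whose footprints contain the core letters of CTCF, the architectural protein of chromatin loops, searched as AGGTGGC or AGGGGGC on either strand.
Between Trdv5 and Traj61, chr14:54152941-54153120: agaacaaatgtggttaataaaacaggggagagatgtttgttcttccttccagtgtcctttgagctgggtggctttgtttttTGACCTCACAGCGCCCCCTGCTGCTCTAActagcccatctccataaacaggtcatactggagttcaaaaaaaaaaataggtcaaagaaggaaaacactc
Downstream of Trac, second peak, chr14:54228201-54228400: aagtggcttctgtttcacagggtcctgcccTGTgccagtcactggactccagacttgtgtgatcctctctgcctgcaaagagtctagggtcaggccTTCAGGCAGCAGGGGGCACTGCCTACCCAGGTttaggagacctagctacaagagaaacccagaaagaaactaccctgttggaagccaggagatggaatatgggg
Upstream of Trav17, chr14:53806361-53806520: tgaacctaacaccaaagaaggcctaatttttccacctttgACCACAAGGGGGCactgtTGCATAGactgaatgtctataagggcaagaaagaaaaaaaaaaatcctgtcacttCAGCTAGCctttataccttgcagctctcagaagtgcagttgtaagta
Between Trbv1 and Trbv2, chr6:40893641-40893840: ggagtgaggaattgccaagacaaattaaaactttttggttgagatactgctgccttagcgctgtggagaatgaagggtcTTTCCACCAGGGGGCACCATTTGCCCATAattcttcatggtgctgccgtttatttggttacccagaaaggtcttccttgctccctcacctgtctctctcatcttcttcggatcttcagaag
Upstream of Trbv12-1, chr6:41112981-41113160: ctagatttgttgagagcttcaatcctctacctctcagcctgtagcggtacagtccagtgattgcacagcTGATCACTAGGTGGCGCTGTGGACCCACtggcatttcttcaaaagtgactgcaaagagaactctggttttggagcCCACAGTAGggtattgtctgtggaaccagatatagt
Upstream of Trbv12-2, chr6:41118281-41118460: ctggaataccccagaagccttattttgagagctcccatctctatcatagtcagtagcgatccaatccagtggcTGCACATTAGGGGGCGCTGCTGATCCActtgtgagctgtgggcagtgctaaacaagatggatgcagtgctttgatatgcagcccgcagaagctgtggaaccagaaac

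The third set shows 1 peak upstream of a V segment of the gamma locus and the peak inside Trac. The latter has capitals for footprints of replicate 2, the library that had the peak.
Upstream of Tcrg-V7, chr13:19177741-19177920: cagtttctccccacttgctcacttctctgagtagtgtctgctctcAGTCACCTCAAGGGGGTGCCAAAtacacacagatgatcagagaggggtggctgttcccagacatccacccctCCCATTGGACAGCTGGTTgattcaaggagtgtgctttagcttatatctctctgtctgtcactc
Intron of Trac, chr14:54222493-54222677: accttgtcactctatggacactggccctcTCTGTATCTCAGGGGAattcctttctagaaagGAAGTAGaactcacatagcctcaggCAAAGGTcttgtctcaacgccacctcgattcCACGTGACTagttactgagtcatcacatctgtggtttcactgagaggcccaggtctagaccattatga

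**Figure D1:**
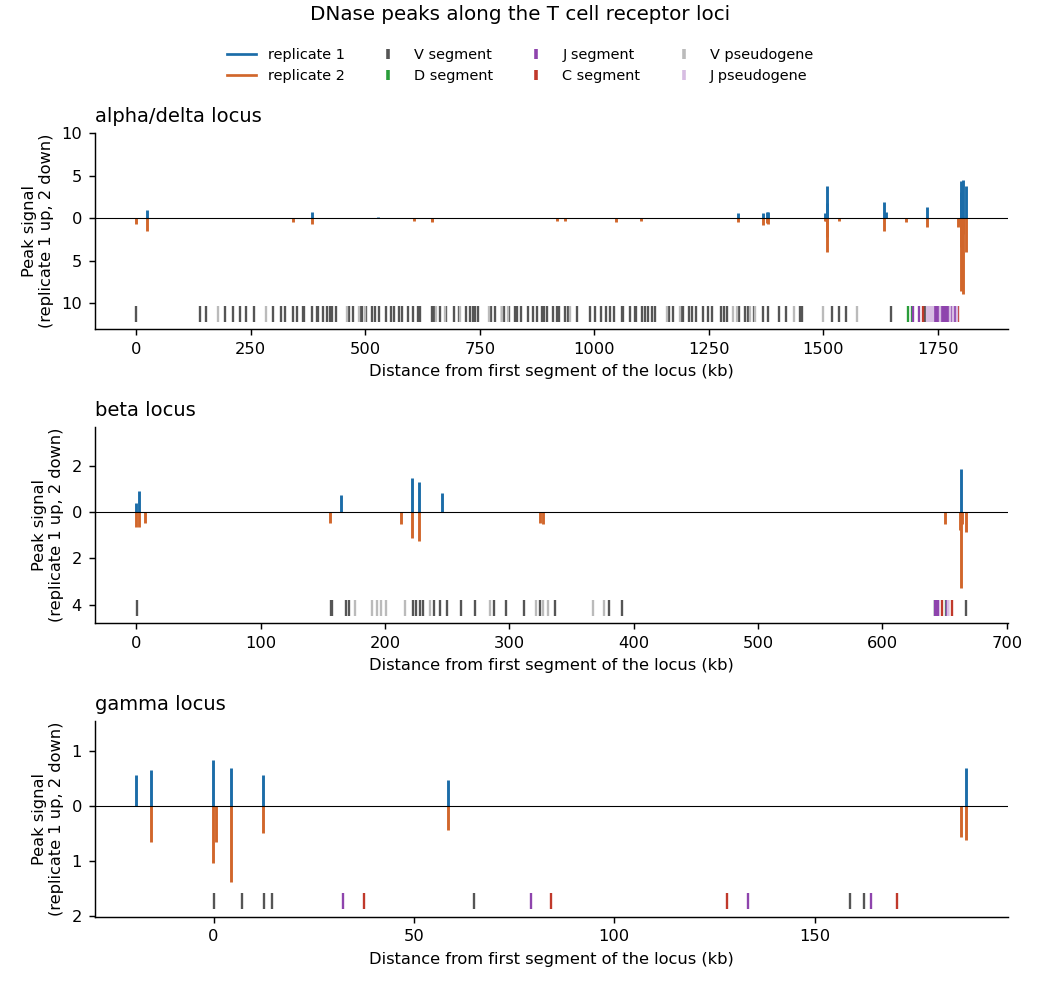
Position and signal of every peak of the shorter list in the 3 receptor loci. The x axis gives the distance from the first segment in kb, the y axis the deposited peak signal (no unit given), upward for replicate 1 and downward for replicate 2, and ticks mark the segments by class. The highest lines, 4.52 in replicate 1 and 8.99 in replicate 2, stand at the right end of the alpha/delta locus, and the J segments have none.

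Each library came with a shorter peak list, in which every peak held a run of bases with an FDR of at most 0.001, and a longer one reaching 0.05. Counts are from the shorter lists unless the longer are named. Peak signal is the authors' value, comes in whole steps of 0.0106 in replicate 1 and 0.00513 in replicate 2, and is given with its rank in its own list. Total read depth was unknown. Replicate 2 had more peaks and 246700 footprints against 133725, so counts are given for each library.

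Around the constant genes the coding exons were closed in these lists, and the open sites lay beyond Trac. Trac, which encodes the constant region of the alpha chain, lies on chromosome 14 from 54220521 to 54224206. Within 500 bases of it replicate 1 had no peak, no run of bases under an FDR of 0.05 and no footprint. Replicate 2 had 1 peak there, from 54222493 to 54222677 in the intron between exons 2 and 3, with a signal of 1.07, rank 31956 of 60683, an FDR of 7.9e-06 and 4 footprints inside it. It was also in the longer list of replicate 2 and among its strongest 42454 peaks, and in no list of replicate 1. Trdc (delta chain; 54142851 to 54148868), Trbc1 (beta chain; chromosome 6, 41538218 to 41539881) and Trbc2 (41546730 to 41548352) had no peak in either list of either library and no run under 0.05 in their windows. The same held for the gamma chain genes Tcrg-C1, Tcrg-C2, Tcrg-C3 and Tcrg-C4. The windows of Trbc1 and Trbc2 consisted to 12.5% and 12.7% of words of 36 bases that recur in the beta locus, and that of Tcrg-C1 to 45.0%. Whether reads from these copies were lost was not tested.

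The flank beyond Trac, which ends inside Dad1, held 6 of the 19 alpha/delta peaks of replicate 1 and 8 of the 32 of replicate 2. Dad1 encodes a subunit of the complex that attaches sugars to new proteins, and is active in most cells. The strongest receptor peak of both libraries, from 54233341 to 54233560, lay 9135 bases past the end of Trac, with a signal of 4.52 in replicate 1 and 8.99 in replicate 2. It ranked 7185 of 42454 and 4164 of 60683. The next, from 54227401 to 54227760, lay 3195 bases past Trac, where the alpha enhancer is placed, with signals of 4.36 and 8.62 at ranks 7481 and 4403. These 2 were the only receptor peaks among the strongest 10% in replicate 2, and replicate 1 had 0 there. In the second, the element TGACGTCA spans 54227480 to 54227487, inside a footprint of each library, and no other of the 59 receptor regions held these letters.

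A peak in a Dad1 intron, from 54239141 to 54239340, had signals of 3.80 and 4.01. The peak from 54228201 to 54228400, with the CTCF letters in a footprint of both libraries, had 3.10 and 3.45. Lower were the peaks starting at 54230721, with 2.02 and 3.38, and at 54231193, with 1.68 and 2.03. All 6 were thus open in both libraries. Replicate 2 alone had peaks starting at 54232881 (signal 1.81, and 1.21 in the longer list of replicate 1) and 54225283 (0.851, in no list of replicate 1). No peak overlapped an annotated exon of Trac, Trdc, Trbc1 or Trbc2, or a Dad1 exon inside the flank. The first exon of Dad1, from 54253632 to 54254104, lies beyond the end of the flank at 54244206 and was not examined.

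**Figure D2:**
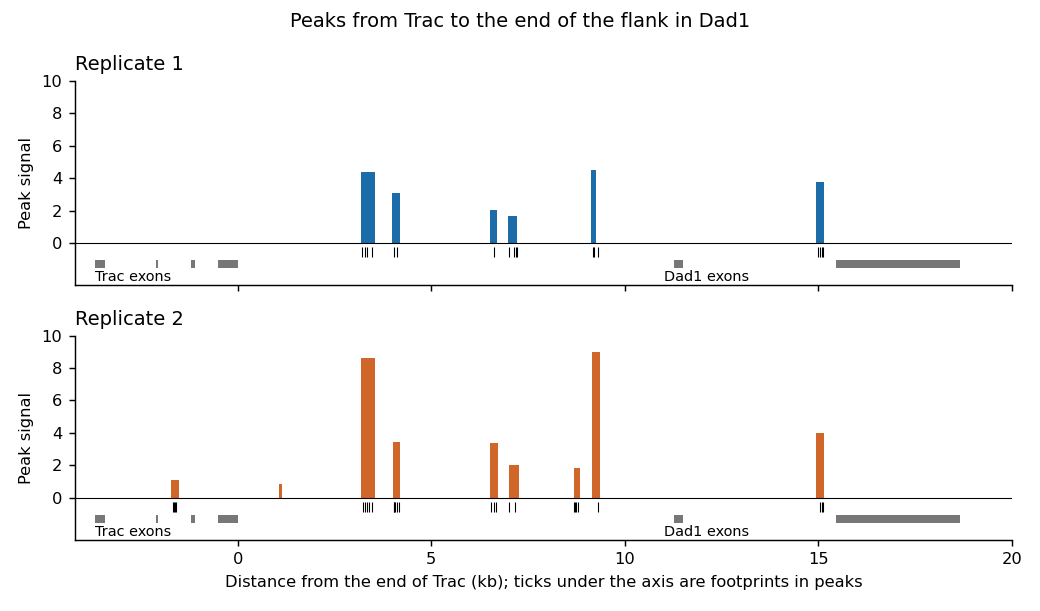
Peaks from Trac to the end of the flank in Dad1, one panel per library. The x axis is the distance from the end of Trac in kb, bar height the deposited peak signal (no unit given) and bar width the peak width, with footprints as ticks and exons as grey boxes below. The peaks 3195 and 9135 bases past Trac are the highest in both libraries, and the bar inside Trac appears in replicate 2 only.

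The ratio of the signals in the libraries differed along the loci. In each of the 6 shared regions beyond Trac the signal was higher in replicate 2, with ratios from 1.06 to 1.99 and a median of 1.44. In the other 22 shared receptor regions replicate 2 was higher in 8, with a median ratio of 0.927 and a range of 0.669 to 2.03. Of all 39802 shared peaks of the genome, 28446 were higher in replicate 2, with a median ratio of 1.22, so a higher signal in replicate 2 was common. Of 12 T cell marker genes, 4 in replicate 1 and 9 in replicate 2 had a peak within 1 kb of an annotated transcript start, called a promoter peak here. The same rule was met by 53.4% and 56.9% of protein-coding genes. The 4 T cell markers with a promoter peak in both libraries had summed signals of 5.16 and 8.52, a ratio of 1.65. For the 8 B cell markers, all with a promoter peak in both, the sums were 33.97 and 61.7, a ratio of 1.82. The ratios were 1.58 for 4 erythroid genes, 1.78 for 3 macrophage and monocyte genes and 1.40 for 1 NK cell gene, so the marker lists of other cell types were also higher in replicate 2. These are ratios of sums, in which the strongest genes weigh most. They are a different measure from the medians of single-region ratios above. The part of cell composition in the receptor signals was not tested.

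**Figure D3:**
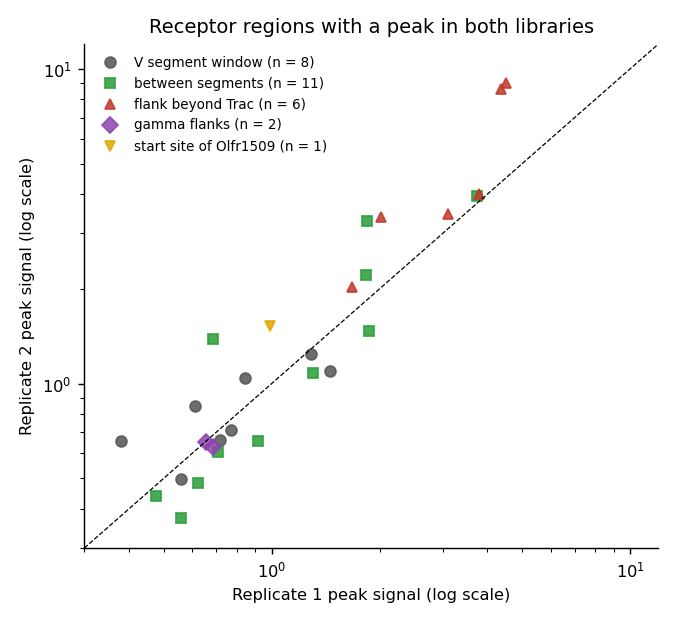
Signal of the 28 receptor regions with a peak in both libraries. Both axes show the deposited peak signal on a log scale (no unit given), replicate 1 on x and replicate 2 on y, symbols give the class, and the dashed line marks equal signal. The 6 regions beyond Trac lie above the line, and 8 of the other 22 do.

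In the alpha/delta locus apart from that flank, the highest signal came from a repeated sequence and not from a segment. The region from 53935921 to 53936240, between Trav22 and Trdv2-1 and inside the antisense gene Gm43647, had signals of 3.75 and 3.95. Of its words of 36 bases 77.9% recur in the locus, and its FDR, 8.3e-64 and 2.0e-94, was lower than that of the peak at the alpha enhancer position, 1.1e-20 and 2.2e-76. Its neighbour from 53935441 to 53935640, without such words, had 1.84 and 2.21. A peak between Trdv3 and Trdv4, from 54059881 to 54060080, had 1.87 and 1.47.

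At the 5′ end of the J alpha array, where the T early alpha promoter opens the J segments for their first rearrangements, 1 peak was shared. It spanned 54152941 to 54153120, 1885 bases before Traj61 and 3647 bases past Trdv5, with signals of 1.31 and 1.08. Its single footprint in each library covers the CTCF letters on the minus strand, as the sequence shows. No peak lay from Trdd1 to Trdc, the interval of the delta D and J segments and the delta enhancer. Upstream of Trdd1, replicate 2 alone had a peak from 54108813 to 54109007 with a signal of 0.502.

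In the beta locus the strongest site of both libraries was the peak at the enhancer position. It spanned 41554381 to 41554600, 6029 bases past Trbc2 and 3091 bases from Trbv31, with signals of 1.85 and 3.28 at ranks 16721 and 12508. The bases in footprints of both libraries, ACAGGATGTG, run into a RUNX core, TGTGGT, at 41554464 to 41554469, and RUNX factors are known regulators of this enhancer. Replicate 2 alone had smaller peaks on either side, starting at 41553446 (0.784) and 41554979 (0.497). Beyond it Trbv31, the V segment that lies downstream of the constant genes and is joined by inversion, had a peak over its start in replicate 2 with a signal of 0.871. In replicate 1 the longer list alone had one there, with 0.728.

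Of the D segments, Trbd2 had a peak in replicate 2, from 41541844 to 41542034 and 129 bases before the segment, with a signal of 0.528, and the longer list of replicate 1 had one at 0.633. Trbd1 had a peak in the longer list of replicate 2 alone (0.359). Trdd1 and Trdd2 had none in any list. All 70 J segments and 10 J pseudogenes lacked a peak in both libraries. The longer lists added 1 J segment, Traj49, in replicate 2, with a signal of 0.384.

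Open V segments were few, and their share was lowest in the alpha/delta locus, which also holds the repeated V segments. Of 144 V segments, 9 had a peak within 500 bases in replicate 1 and 19 had one in replicate 2, a mean of 14 ± 7.07 (SD, n = 2), and 8 had one in both. By locus these were 4 and 11 of 115 in alpha/delta, 3 and 6 of 22 in beta, and 2 and 2 of 7 in gamma. Of the 115 in alpha/delta, 73 had windows made up to more than 50% of recurring words of 36 bases, and 0 in the other two loci did. The remaining 42 of alpha/delta had a peak in 2 and 7, or 4.76% and 16.7%, against 13.6% and 27.3% in beta and 28.6% in both libraries in gamma. The difference between loci was not tested. The 34 V pseudogenes had 0 and 1. Counted at the start site alone, within 500 bases, 6.25% and 11.8% of V segments had a peak, and 5.56% in both. For the same window and both libraries the share was 23.6% over all annotated genes (23.8% in replicate 1, 26.2% in replicate 2) and 48.4% over protein-coding genes. It was 0.176% for olfactory receptor genes, a clustered family that works in the nose, and 8.72% for immunoglobulin V genes (9.63% and 22.5%). Over all 270 segments it was 2.96%, and for J segments 0.

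**Figure D4:**
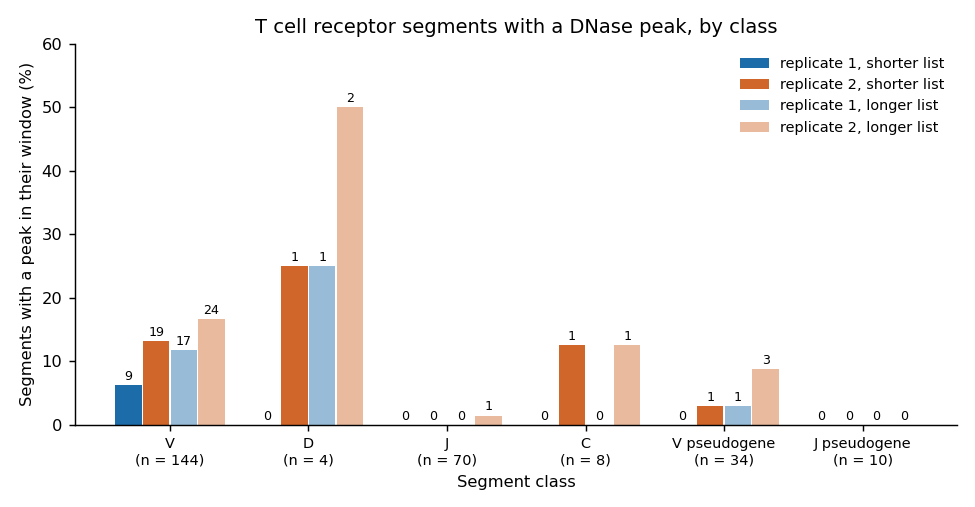
Percent of receptor segments with a peak in the segment window, by class, with the count above each bar. Dark bars are the shorter and light bars the longer lists, blue for replicate 1 and orange for replicate 2. V segments have 9 and 19 in the shorter lists, while J segments have a bar of 1 in the longer list of replicate 2 only.

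The 8 V segments open in both libraries were Trav10d, Trav17 and B230359F08Rik, a segment annotated as an alpha V gene, in alpha/delta, Trbv1, Trbv12-1 and Trbv12-2 in beta, and Tcrg-V6 and Tcrg-V7 in gamma. V segments encode the part of the receptor that meets antigen. Trbv12-1 had the highest V segment signal in replicate 1, 1.46, and 1.10 in replicate 2. Trbv12-2 had 1.29 and 1.25, the highest in replicate 2. These neighbours had their peak at almost the same place, with midpoints at -469.5 and -479.5 bases from the segment start for Trbv12-1 and -478.5 and -480.5 for Trbv12-2 (negative is upstream), and both sequences show the CTCF letters in capitals.

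Tcrg-V7 had a peak with its midpoint at -193.5 bases in replicate 1 and -203.5 in replicate 2, with signals of 0.844 and 1.04. The E box CAGCTG, a sequence that E proteins bind, lies in a footprint of both libraries there. Tcrg-V6 had 0.559 and 0.497, closer to its start. Trav17 had 0.770 and 0.712. TCF/LEF, RUNX and CTCF letters lie end to end there under a single footprint of each library. In replicate 1 that footprint reaches only the last base of the TCF/LEF letters. Whether these letters are separate sites was not tested. Trav10d had 0.717 and 0.661, B230359F08Rik 0.612 and 0.846, and Trbv1 0.380 and 0.656. With 2 values each, no order among the weaker of these segments stands beyond the difference between libraries.

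Where V segments were open, the midpoint of the peak was mostly upstream of the segment start. Whether these peaks mark promoters was not tested. Those of Trbv12-1, Trbv12-2 and Trav17 held CTCF letters in footprints of both libraries. In replicate 1, 8 of 9 peaks had their midpoint upstream and 1 inside the segment. In replicate 2, 15 of 21 were upstream, 2 inside and 4 downstream. The downstream ones, over the recombination signal, belonged to Trav13d-3 (0.374), Trav13d-4 (0.374), Trav13n-4 (0.359) and Tcrg-V7 (0.661), and were in replicate 2 alone.

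**Figure D5:**
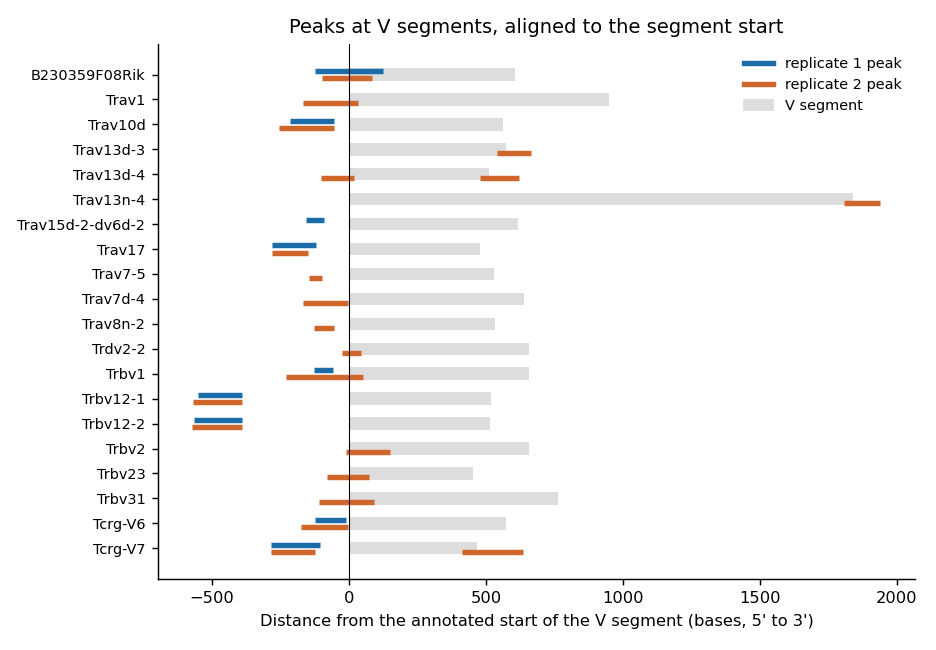
Extent of each peak at a V segment, aligned to the annotated segment start. The x axis is the distance from the start in bases in the direction of transcription, grey bars are the segments, and blue and orange bars are peaks of replicates 1 and 2. Most peaks lie left of 0, those of Trbv12-1 and Trbv12-2 farthest, and 4 peaks of replicate 2 lie at the right end of their segment.

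A recombination signal next to the segment end was searched for each V, D and J segment, giving 266 signals with D segments counted on both sides. The heptamer was exactly CACAGTG in 136. Of all 266 signals, a peak overlapped 0 in replicate 1 and 5 in replicate 2, the 4 just named and the V pseudogene Trbv24. The longer lists overlapped 4 and 11. The signals below are shown because they were covered by a peak of replicate 2, or, for Trbv1, because it matched the heptamer and nonamer searched without a mismatch and had a peak in the longer list of both libraries; capitals mark the heptamer and nonamer.
Trav13d-3, chr14:53033420-53033458, plus strand: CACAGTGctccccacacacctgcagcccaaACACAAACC
Trav13d-4, chr14:53073275-53073313, plus strand: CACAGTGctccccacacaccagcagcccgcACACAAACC
Trav13n-4, chr14:53364107-53364145, plus strand: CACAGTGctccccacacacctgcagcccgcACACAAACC
Tcrg-V7, chr13:19178493-19178530, plus strand: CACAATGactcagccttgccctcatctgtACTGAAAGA
Trbv1, chr6:40891886-40891924, plus strand: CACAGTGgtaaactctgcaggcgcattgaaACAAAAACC

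The signals of the 3 Trav13 segments have 1 mismatch each and that of Tcrg-V7 has 5. Trav13d-3 and Trav13d-4 lie in the part of the alpha locus that exists in several near-identical copies. Their windows consisted to 97.7% and 72.9% of recurring words of 36 bases. In the peak region of Trav13n-4 such words made up 47.5%, and its sequence is nearly that of the downstream peaks at Trav13d-3 and Trav13d-4. Among V segments with more than 50% of such words, 2 of 73 had a peak in replicate 1 and 4 in replicate 2, and among the others 7 and 15 of 71. The part of these copies in the peak counts was not tested.

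In the gamma locus, short and dense in peaks, open sites clustered at its first V segments. Of 7 peaks in replicate 1 and 8 in replicate 2, 6 were shared. The highest in replicate 2 lay between Tcrg-V7 and Tcrg-V4, from 19182361 to 19182574, with 0.686 in replicate 1 and 1.39 in replicate 2. Upstream of Tcrg-V7 a peak from 19162224 to 19162420 had 0.654 and 0.651. Beyond Tcrg-C4, inside the neighbouring gene Stard3nl, the peak from 19365741 to 19365862 had 0.686 and 0.630. A weak peak between Tcrg-C1 and Tcrg-V3, from 19236509 to 19236600, had 0.475 and 0.441, with CTCF letters in a footprint of both libraries.

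In all, the peaks formed 59 regions, 28 of them open in both libraries, 5 in replicate 1 alone and 26 in replicate 2 alone. By class 22 lay at V segments, 20 between segments, 12 in flanks, 2 within 1 kb of a transcript start of another gene, and 1 each at a C segment, a D segment and a V pseudogene. Of the 26, 15 had a peak in the longer list of replicate 1, and of the 5, 4 had one in that of replicate 2. Among the other genes in the spans, the olfactory receptor gene Olfr1509, near Trav1, had a peak in both libraries with signals of 0.992 and 1.53. It spans 52451201 to 52451440, 808 bases downstream of the nearest of 4 annotated transcript starts, over the end of the coding sequence and the stop codon at 52451339 to 52451341. Gm38276 shares the peak of Trbv1. Of 19 protein-coding genes in the spans, which include the trypsin genes of the beta locus, Olfr1509 was the only one with a peak within 1 kb of a transcript start in either library.

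Replicate 2 covered 28 of the 33 receptor peaks seen in replicate 1, or 84.8% (Wilson 95% limits 69.1 and 93.3), while over the genome it covered 93.8%. Replicate 1 covered 51.9% (38.9 and 64.6) of those in replicate 2, while over the genome it covered 65.7%. The receptor peaks were weak, with 66.7% and 74.1% of them below the median signal of their list. The limits cover counting error only.

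Footprints in receptor peaks numbered 62 and 138, which is 1.88 and 2.56 per peak (2.22 ± 0.479, SD, n = 2), against 2.48 and 2.84 over all peaks. In shared peaks 35 of 55 (63.6%) and 35 of 83 (42.2%) were found in both libraries, against 69.1% and 50.6% of the genome. Short letter patterns were then searched on both strands, and counted in a footprint where the letters and the footprint overlapped by at least 1 base. Only exact letters were counted, so footprints with close variants are left out of these counts. For example, AGATGGC, close to the CTCF letters AGGTGGC, was in footprints of both libraries in the Dad1 intron, between Trdv3 and Trdv4, and upstream of Trav10d. CTCF letters lay in a footprint of both libraries in 8 regions, RUNX letters (TGTGGT) in 5, E boxes (CAGCTG or CAGGTG) in 3, ETS letters (AGGAAG or CCGGAA) in 2, and TCF/LEF letters (CTTTGA), the cyclic AMP response element and the heptamer in 1 each. GATA letters (AGATAA) were there in 0. As a share of all footprints in peaks, each widened by 5 bases, CTCF letters were in 11.3% and 5.07% of the receptor ones, against 8.12% and 5.12% away from promoters, so in replicate 2 the share was near the background. RUNX letters were in 9.68% and 6.52%, or 6 of 62 and 9 of 138, against 2.82% and 3.01%. These matches were not all separate sites. At Trav17 the RUNX letters adjoin CTCF letters in the same footprint, and B230359F08Rik and Trav13d-4 had the same footprint bases, ACCACAGC. In the region between Trav8-2 and Trav16, the replicate 2 footprint runs on from the RUNX letters into a close variant of the CTCF letters. The replicate 1 footprint there ends inside the RUNX letters. Whether the RUNX letters there and at Trav17 are separate sites or part of a CTCF site was not tested. E boxes were in 4.84% and 5.07%, against 4.96% and 4.65%, and ETS letters in 4.84% and 5.07%, against 4.51% and 5.42%.

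The regions with TGTGGT in a footprint of both libraries were the beta enhancer position, Trav17, B230359F08Rik, a region between Trav8-2 and Trav16, and the last exon of Olfr1509. In the peak at the alpha enhancer position TGTGGT, at 54227642 to 54227647, lay outside the footprints. A footprint of both libraries there holds GCCACA, which reads TGTGGC on the other strand and was not among the letters searched. In the central 200 bases of receptor peaks RUNX letters were found in 30.3% and 38.9%, against 20.7% and 21.6% of all peaks away from promoters and 15.5% and 17.3% of all peaks. In replicate 2 these include the downstream peaks of Trav13d-3, Trav13d-4 and Trav13n-4, whose sequences are nearly the same. TCF/LEF letters were in 27.3% and 18.5%, against 12.7% and 12.9% away from promoters. ETS letters were in 45.5% and 51.9%, against 42.9% and 45.8%, and CTCF letters in 27.3% and 18.5%, against 23.1% and 17.8%. A match describes letters, and with 33 and 54 peaks these shares were not tested.

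Set against the immunoglobulin loci of B cells, built by the same rule, the receptor loci had fewer peaks per length than each of them in replicate 2, and than the lambda locus alone in replicate 1. Per 100 kb the receptor spans had 1.20 and 1.96 peaks, a mean of 1.58 ± 0.538 (SD, n = 2). The heavy chain locus had 1.18 and 3.51, the kappa locus 1.03 and 2.80, the lambda locus 4.60 and 8.78, and the genome 1.56 and 2.23. All these spans include their flanks. Without flanks the receptor spans had 0.834 and 1.59. The immunoglobulin loci were not counted without theirs, so the order in replicate 1 holds for spans with flanks only. The gamma locus, at 3.26 and 3.73, was denser than the alpha/delta locus (1.03 and 1.74) and the beta locus (0.990 and 1.98) in both libraries. Bases at an FDR of at most 0.001 made up 0.274% and 0.426% of the alpha/delta locus, 0.188% and 0.418% of beta and 0.455% and 0.656% of gamma. They made up 0.510% and 0.701% of the genome, 0.208% and 0.977% of the heavy chain locus, 0.194% and 0.602% of kappa and 1.33% and 2.36% of lambda. In replicate 1 the heavy chain and kappa loci thus lay below alpha/delta and gamma, and in replicate 2 above alpha/delta and beta. When replicate 2 was limited to its strongest 42454 peaks, it had 22 receptor peaks against 33 in replicate 1, and 5 open V segments against 9.

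The genes of the receptor complex and of its assembly were also read, by their promoter peaks, which 53.4% and 56.9% of protein-coding genes had. Among these 8, replicate 1 showed a promoter peak at 1 and replicate 2 at 3. Cd3g, a signalling chain of the complex, had signals of 0.960 and 1.67. Cd3e and Cd247, the epsilon and zeta chains, had a peak in replicate 2 alone, at 0.641 and 1.04. Cd3d had one in the longer list of replicate 2. Ptcra, the partner of the beta chain in immature T cells, the recombinase genes Rag1 and Rag2, and Dntt, which adds bases at the joints, had none in any list.

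T cell identity was read from 12 markers, of which Cd3g, Cd5, Lck and Bcl11b had a promoter peak in both libraries. Cd5, which dampens receptor signalling, had the highest signal of them, 1.88 and 3.70. The 8 B cell markers had signals from 1.75 to 7.47 in replicate 1 and from 4.01 to 11.1 in replicate 2. Of the others, 4 and 6 of 6 erythroid genes, 3 and 4 of 6 macrophage and monocyte genes, and 1 and 1 of 5 NK cell genes had a promoter peak. Cd3d, Cd4 and Tcf7 had no promoter peak in the shorter lists of either library.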

How the data were processed

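DNase-seq of spleen was read from 2 libraries of 1 group. Per the file headers and the readme of each library, peaks, footprints and the cut rate track were made by the authors for each library apart, on mm10, without pooling. The labels and headers name no aligner or peak caller for these files, and no depth. Signal in the deposited peak lists is a non-negative score of the authors whose scale is not given, and it was used to rank and describe peaks and to set stricter thresholds. The deposited cut rate track assigns an FDR (q-value) to stretches of bases and keeps those under 0.05. Deposited footprints carry an FDR threshold of 0.01.

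Segments were the entries of T cell receptor type in GENCODE M21, and immunoglobulin spans were built alike. A segment window was the segment with 500 bases on each side, and a start window 500 bases on each side of the annotated gene start. Promoter peaks of other genes lay within 1 kb of any transcript start. Peaks were shared with an overlap of at least 1 base, and footprints with 50% of the shorter one. Repeated sequence was the share of 36-base words that recur within the span on either strand. Recombination signals were the best heptamer within 5 bases of the segment end with a nonamer after a spacer of 12 or 23 bases, plus or minus 1. Sequence came from the matching reference assembly. Peaks were not filtered. The overlap and signal searches were tested on simulated data. Python 3.11.15, numpy 2.4.6, scipy 1.17.1, pandas 2.3.3 and matplotlib 3.10.9 were used.

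Named in the text by rule were the constant genes, segments with a peak in both libraries, other genes in the spans with a peak within 1 kb of a transcript start in both, the 5 strongest peaks of each locus by mean rank, and the receptor complex genes. Other segments and peaks were named after their values were seen. The members, lists and rule were chosen with earlier results of these data known. Alternatives were the longer lists, the strongest 50% of peaks, equal numbers of peaks, no flanks, other windows and overlaps, and each library alone.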

Additional observations from a re-analysis of the deposited data

How the results depend on the processing

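The counts depend on the peak threshold, and all values here are means of both libraries unless a library is named. With the longer lists the loci held 70.5 peaks, 25 segments with a peak and 2.56 peaks per 100 kb, against 43.5, 15.5 and 1.58. With the strongest 50% of the peaks of replicate 1 and as many of replicate 2 they held 10.5 peaks, 0.5 segments, 30 footprints in peaks and 0.381 peaks per 100 kb. With equal numbers of peaks they held 27.5 peaks, 7.5 segments, 64 footprints and 0.997 peaks per 100 kb, and replicate 2 covered 51.5% of the peaks of replicate 1 in place of 84.8%. A peak overlapping the segment itself, without added bases, was found at 7 segments. That is 1 in replicate 1 and 13 in replicate 2, against 9 and 22 with the added bases, so this count depends on the window. Leaving out 1 library in turn gave 33 to 54 peaks, 9 to 22 segments, 62 to 138 footprints and 1.20 to 1.96 peaks per 100 kb. Of the 11 named segments and constant genes with a peak, 9 kept the number of libraries with one in the longer lists and 6 with equal numbers of peaks, where Trav10d, Trav17, Trbv1 and Tcrg-V6 lost 1 library and Trbd2 its only one. With the strongest 50% none of the 11 kept it: 10 had 0 libraries with a peak, and Trbv12-1 had 1. The 7 constant genes without a peak (Trdc, Trbc1, Trbc2 and those of gamma) had none in the longer lists either, the one alternative list that could have added a peak. Without flanks, with 1 kb on each side of a segment and with the other overlaps run, the values moved by less than the spread between the libraries. The shared percentage stayed within its Wilson interval in these settings. Read depth is not given, so weak opening below the authors' thresholds was not detectable. No paired analysis was possible because the libraries form 1 group.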
